A study of Rattus norvegicus with 18 samples.

Results

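The primary cilium and the centrosome were followed through 68 genes, of the 14218 named genes on the array. They were the probe sets with a single gene symbol that begins with Ift, Bbs, Cep, Tctn or Nphp and a digit, or with Dync2, together with Ahi1, Gpr161, Gas8, Kif3a, Kif3b and Adcy3. Arl13b was searched for as well and is named only. These symbols covered 100 of the 31099 probe sets, and each gene was represented by its brightest probe set over all arrays. The choice was by name, so it holds genes of the centriole, of immotile cilia and, in Gas8, of motile cilia, and no array value shows whether a cell carries a cilium.

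Most neurons and astrocytes of the brain carry a primary cilium, a single immotile antenna that grows from the mother centriole of the centrosome. Intraflagellar transport (IFT) trains, drawn outward by kinesin and back by dynein, carry its building material, the BBSome moves receptors out of it, and the transition zone at its base acts as a gate. Its membrane gathers receptors and adenylyl cyclase, and defects of these genes cause ciliopathies such as Joubert and Bardet-Biedl syndromes.

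The rats had been given chronic immobilization stress, in which the animal is held still repeatedly over days, or had been handled only. Total RNA of 3 brain regions was measured on 18 Affymetrix rat arrays, 3 for each of 6 groups, which were stress and handled amygdala, stress and handled hippocampus, and stress and handled cortex. The sources used here do not give strain, sex, age, the length of the stress or any pooling, and they do not state whether the 3 arrays of a group, or its regions, stand for different animals. The p-values therefore measure only how far these arrays spread, and that spread may be technical. The number of arrays limits the precision. Region was taken from the titles, because another label named the amygdala for all 18 arrays. Summed marker intensities followed the titles in handled arrays. Amygdala markers reached 6099 to 6269 in amygdala, against 903 to 1069 in hippocampus and 2596 to 2687 in cortex, hippocampal markers reached 2937 to 3003 in hippocampus, against 1098 to 1150 in the other regions, and neocortical markers reached 2032 to 2249 in cortex, against 1403 to 1784 in the other regions.

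Of the 68 genes, 63 passed the filter on dim probe sets, which kept 18625 probe sets at or above an intensity of 30.1, taken as the mean on the log2 scale. Bbs12, Cep126, Cep295nl, Cep72 and Nphp4 did not pass and were not tested. The brightest of the genes were Cep170b, Cep170 and Cep19. The genes were dim as a group, with a median intensity of 105 against 138 over all tested probe sets, and their residual standard deviation had a median of 0.18 on the log2 scale against 0.17. Tests were made with limma on log2 of the intensity plus 16, with adjustment by Benjamini and Hochberg over all tested probe sets, and a gene passed at an adjusted p under 0.05. Changes are on that scale, which understates those of dim genes, and are given with their standard error.

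In the stressed amygdala Ahi1 fell and Gas8 rose, and in the stressed hippocampus Gpr161 fell. Averaged over the regions, Bbs5 rose and Gpr161 fell. No other gene of the 63 passed in a stress comparison. In amygdala 2 of the 63 passed (1 higher, 1 lower), where 2.40% of all probe sets passed, 0.456% higher and 1.94% lower. In hippocampus 1 of the 63 passed, where 0.360% of all probe sets passed. In cortex none of the 63 passed with limma, where 0.403% of all passed, and 4 had an unadjusted p under 0.05, against 10.2% of all probe sets. For the average of the regions 2 of the 63 passed, against 4.66% of all. None passed in the tests of a difference in stress effect between regions, where 0.0483% of all probe sets passed for amygdala minus hippocampus, 0.129% for amygdala minus cortex and 0.0859% for hippocampus minus cortex. At an unadjusted p under 0.05 the 3 tests of a difference gave 8, 6 and 2 of the 63, against 8.06%, 9.76% and 5.63% of all probe sets. Counts of 0 to 2 among 63 genes say little of the group as a whole.

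**Figure D1:**
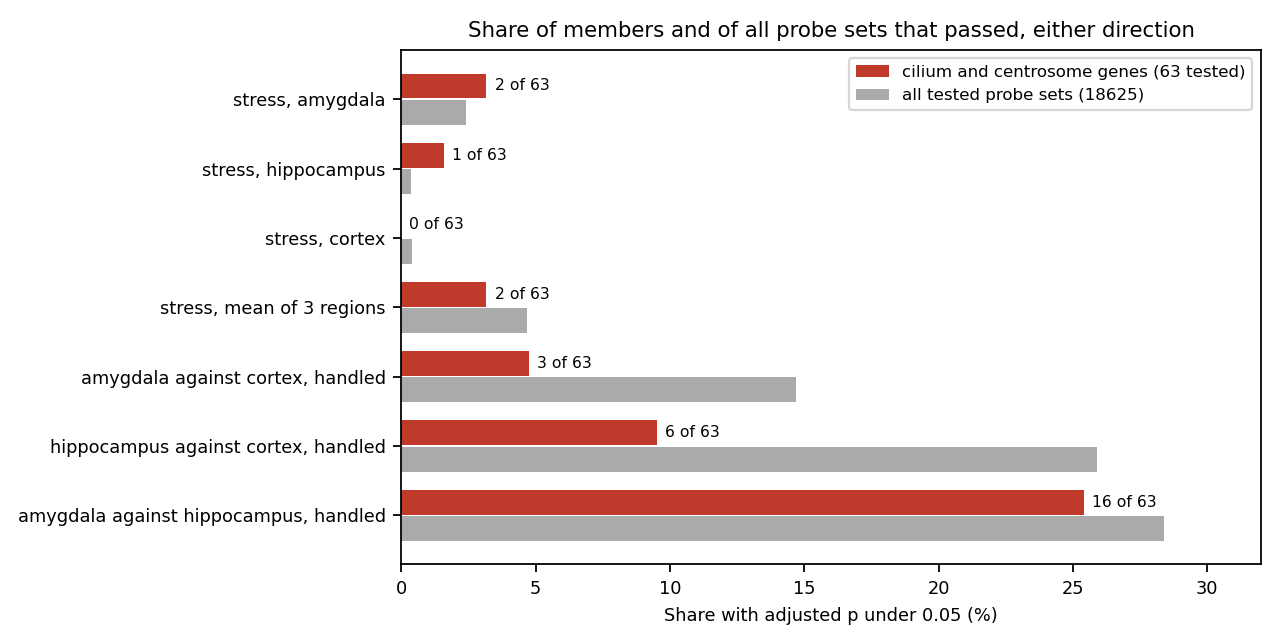
Share of the 63 tested cilium and centrosome genes (red) and of all 18625 tested probe sets (grey) with an adjusted p under 0.05 in each comparison; numbers beside the red bars are counts of genes. The red bar is short in every stress comparison, and it is shorter than the grey bar in the 3 comparisons between handled regions.

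Ahi1 encodes jouberin, a protein of the transition zone whose loss causes Joubert syndrome in humans. Its promoter is shown because it held the only full match to the palindromic X-box, the element bound by RFX transcription factors of ciliary genes, among the promoters of the 60 genes that had one. The window runs from 250 bases before to 50 bases after the transcript start on the plus strand, at chr1:17581781-17582080 of GRCr8 (RefSeq), and capitals mark the match, whose first base lies 83 bases before the start.
Ahi1: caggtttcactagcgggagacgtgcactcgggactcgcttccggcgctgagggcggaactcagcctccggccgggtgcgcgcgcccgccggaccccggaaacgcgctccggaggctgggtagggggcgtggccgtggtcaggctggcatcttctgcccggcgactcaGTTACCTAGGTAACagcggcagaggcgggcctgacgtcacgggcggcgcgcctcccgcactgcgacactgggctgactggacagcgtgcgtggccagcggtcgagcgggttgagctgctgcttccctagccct

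The brighter of the 2 Ahi1 probe sets had intensities of 284, 324 and 300.0 in stress amygdala, against 392, 397 and 736 in handled amygdala. The stress arrays all lay below the handled ones, and 1 handled array lay far above the other handled arrays. The change was -0.66 ± 0.17 (adjusted p = 0.0449, limma). The call was lost in 16 of 27 alternatives, and without handled amygdala replicate 3 the change was -0.37 (adjusted p = 0.295).

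The second Ahi1 probe set had 169.8, 142 and 152 in stress amygdala, against 370.4, 329.7 and 413 in handled amygdala. The groups were far apart here and no single array set the difference. The change was -1.18 ± 0.12, with an adjusted p of 6.93e-06 by limma, and it passed in all 27 alternatives run. In hippocampus this probe set had 85.0, 108 and 102 in stress arrays, against 103, 117 and 129 in handled arrays (-0.21 ± 0.12, adjusted p = 0.529, limma). In cortex it had 144, 148 and 133 in stress arrays, against 165, 135 and 137 in handled arrays (-0.03 ± 0.12, adjusted p = 0.960, limma). The groups overlapped in both of those regions. Averaged over the regions the second Ahi1 probe set also passed as lower. All 26 alternatives kept that call, with averages of -0.51 to -0.39 (adjusted p up to 9.44e-04, limma). The brighter set did not pass in the average.

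The stress effect on the second Ahi1 probe set differed between regions when the difference itself was tested with limma. Amygdala minus cortex was -1.15 ± 0.17 (adjusted p = 0.00233), and amygdala minus hippocampus was -0.97 ± 0.17 (adjusted p = 0.0280). The second of these was lost in 9 of 27 alternatives, with adjusted p up to 0.129, among them those with no filter, without the variance trend and with only the arrays compared, and those without stress amygdala replicate 2, stress hippocampus replicate 3, handled amygdala replicate 1 or 3 or handled hippocampus replicate 1 or 2. For the brighter probe set the same differences were -0.77 ± 0.25 (adjusted p = 0.284) and -0.50 ± 0.25 (adjusted p = 0.631). That probe set had 156, 162 and 208 in stress hippocampus, against 248, 196 and 154 in handled hippocampus, and 323, 276 and 271 in stress cortex, against 261, 273 and 265 in handled cortex. The groups overlapped in both regions. The sources used here do not place either probe set on the transcript, and the r between them was 0.85 over the 18 arrays, which share regions and treatment.

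**Figure D2:**
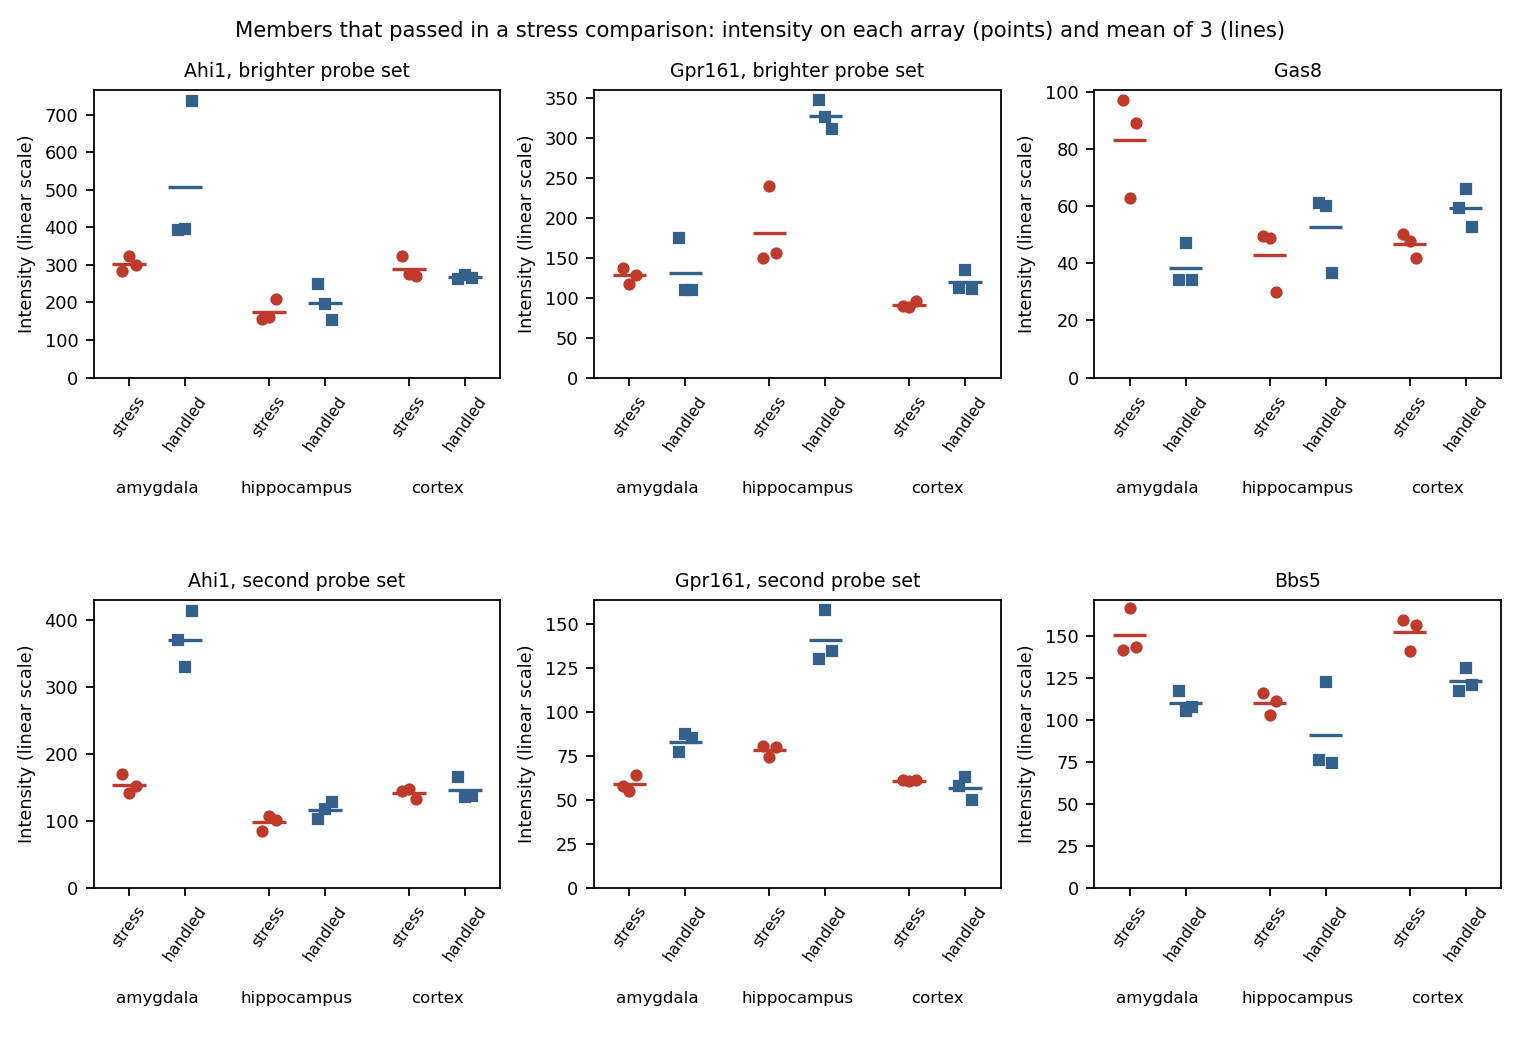
Intensity (linear scale) on each array for both probe sets of Ahi1 and Gpr161 and for Gas8 and Bbs5, stress (red circles) left of handled (blue squares) in each region; lines are means of 3 arrays. Both Ahi1 probe sets separate in amygdala and both Gpr161 probe sets in hippocampus, with the stress arrays below the handled arrays.

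Gpr161 encodes an orphan receptor of the ciliary membrane that raises cyclic AMP and holds back Hedgehog signalling in mice. Its promoter, at chr13:80111021-80111320 of GRCr8 on the plus strand, is shown beside that of Ahi1 because it held neither the X-box nor the 6 bases GTTGCC, its core site, on either strand.
Gpr161: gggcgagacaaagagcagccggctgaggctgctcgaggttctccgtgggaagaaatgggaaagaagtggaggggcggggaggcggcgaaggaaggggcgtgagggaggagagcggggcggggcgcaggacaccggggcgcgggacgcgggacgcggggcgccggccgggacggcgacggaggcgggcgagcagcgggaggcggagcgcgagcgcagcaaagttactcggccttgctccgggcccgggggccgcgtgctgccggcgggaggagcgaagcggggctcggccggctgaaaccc

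The brighter Gpr161 probe set had intensities of 149, 239.8 and 156 in stress hippocampus, against 347, 326 and 311 in handled hippocampus. All 3 stress arrays were below all 3 handled arrays. The change was -0.83 ± 0.16 (adjusted p = 0.0153, limma). The second probe set had 80.6, 74.4 and 79.9 in stress hippocampus, against 130.0, 158 and 135 in handled hippocampus, again without overlap. Its change was -0.73 ± 0.13 (adjusted p = 0.00792, limma). Leaving out an array ended the call for the brighter set in 4 cases. These were stress hippocampus replicate 1 (adjusted p = 0.0773, limma), stress replicate 3 (0.0921), handled replicate 1 (0.0842) and handled replicate 2 (0.0561). The second set lost its call in 2, without stress hippocampus replicate 2 (0.0564) or handled replicate 2 (0.0561). The brighter set also lost it without the variance trend (0.0631), and the second with only the hippocampus arrays fitted (0.0836). In these cases the change stayed at -0.65 or lower. Over all alternatives it ran from -1.03 to -0.69 for the brighter set and from -0.83 to -0.52 for the second.

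Outside the hippocampus the 2 Gpr161 probe sets did not move together. In amygdala the brighter set had 138, 117 and 128 in stress arrays, against 174, 109 and 109 in handled arrays (change -0.00 ± 0.16). The second set had 57.7, 55.1 and 63.9 in stress amygdala, against 77.0, 87.5 and 84.8 in handled amygdala (-0.40 ± 0.13, adjusted p = 0.121, limma). The groups overlapped for the brighter set and were apart for the second. In cortex it was the reverse. The brighter set had 89.7, 87.9 and 95.7 in stress cortex, against 112, 134 and 111 in handled cortex (-0.33 ± 0.16, adjusted p = 0.466, limma). The second set had 61.0, 60.6 and 61.1 in stress cortex, against 57.6, 62.9 and 49.9 in handled cortex. Averaged over the regions the change was -0.39 ± 0.09 for the brighter set (adjusted p = 0.0125, limma) and -0.35 ± 0.07 for the second (adjusted p = 0.00647, limma). No difference of the Gpr161 stress effect between regions passed, the nearest being hippocampus minus cortex for the second set (-0.81 ± 0.18, adjusted p = 0.153, limma).

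Gas8, also known as Drc4, encodes a subunit of the nexin-dynein regulatory complex that holds neighbouring microtubule doublets of motile cilia. Its promoter, at chr19:68461131-68461430 of GRCr8 on the plus strand, is shown because it held 3 core sites, in capitals, the most of any of these genes. A site read on the opposite strand appears as GGCAAC.
Gas8: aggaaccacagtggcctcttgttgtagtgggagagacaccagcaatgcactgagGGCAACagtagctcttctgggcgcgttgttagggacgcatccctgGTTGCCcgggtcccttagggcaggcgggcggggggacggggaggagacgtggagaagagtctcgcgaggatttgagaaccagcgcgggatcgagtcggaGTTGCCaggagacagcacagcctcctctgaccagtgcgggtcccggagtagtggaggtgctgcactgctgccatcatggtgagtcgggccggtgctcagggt

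Gas8 had intensities of 97.2, 62.7 and 88.9 in stress amygdala, against 34.0, 47.2 and 34.2 in handled amygdala. The groups did not overlap, although the handled arrays were near the filter. The change was 0.85 ± 0.19 (adjusted p = 0.0167, limma). In hippocampus Gas8 had 49.5, 48.8 and 30.0 in stress arrays, against 61.1, 60.03 and 36.5 in handled arrays, and in cortex 50.1, 47.9 and 41.7 in stress arrays, against 59.5, 66.0 and 52.6 in handled arrays. These changes were -0.22 ± 0.19 and -0.27 ± 0.19 and neither passed. The difference of the stress effect did not pass for amygdala minus cortex (1.12 ± 0.28, adjusted p = 0.131, limma) or for amygdala minus hippocampus (1.07 ± 0.28, adjusted p = 0.210). The amygdala call was lost without stress amygdala replicate 1 (adjusted p = 0.0721) or 3 (0.0531) and without handled amygdala replicate 1 (0.0745) or 3 (0.0909), as well as with only the amygdala arrays fitted (0.0796), and the change was 0.75 or more in each of these. Gas8 had a single tested probe set.

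Bbs5 encodes a subunit of the BBSome that binds phosphoinositides. Its promoter, at chr3:74818390-74818689 of GRCr8 on the plus strand, held 1 core site, in capitals, and is shown as that of the gene that rose on average.
Bbs5: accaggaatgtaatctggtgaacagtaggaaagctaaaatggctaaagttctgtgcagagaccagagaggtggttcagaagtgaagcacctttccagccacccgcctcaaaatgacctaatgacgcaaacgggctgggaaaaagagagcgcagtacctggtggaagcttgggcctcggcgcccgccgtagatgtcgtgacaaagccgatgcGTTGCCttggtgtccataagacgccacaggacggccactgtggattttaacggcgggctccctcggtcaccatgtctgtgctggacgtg

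Bbs5 had 141, 166 and 143 in stress amygdala, against 117, 105 and 108 in handled amygdala. In hippocampus it had 116, 103 and 111 in stress arrays, against 76.1, 122 and 74.1 in handled arrays. In cortex it had 159, 141 and 157 in stress arrays, against 117, 131 and 121 in handled arrays. The groups were apart in amygdala and cortex and overlapped in hippocampus. The regional changes were 0.40 ± 0.14, 0.26 ± 0.14 and 0.28 ± 0.14 and none passed alone. Their average was 0.31 ± 0.08 (adjusted p = 0.0207, limma), and without stress amygdala replicate 2 it was 0.29 (adjusted p = 0.0506). The averaged test treats the regions as separate samples, which the labels do not settle.

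Markers of other tissue moved in the same comparisons. In amygdala, 9 of 9 tested markers of striatal medium spiny neurons had a change above 0, of which Ppp1r1b and Penk passed, and the summed intensity of 10 of them was 4431 to 4644 in stress arrays, against 3355 to 3697 in handled arrays. Penk was also among the amygdala markers summed above, so it does not mark other tissue alone. The 3′ minus 5′ difference at the hexokinase control, which grows as RNA degrades, was 1.40 ± 0.07 in stress amygdala and 0.91 ± 0.08 in handled amygdala (log2, SD, n = 3 each), while those of beta-actin and GAPDH overlapped. The hexokinase difference was also higher on average under stress in the other regions, where arrays overlapped. It was 1.30 ± 0.18 in stress hippocampus against 1.12 ± 0.12 in handled hippocampus. In cortex it was 1.38 ± 0.13 in stress arrays against 1.21 ± 0.11 in handled arrays. The part of these markers and controls in the changes of Ahi1 and Gas8 was not tested. Nor was the part of the hexokinase difference in those of Gpr161 and Bbs5. For ependymal cells, which carry motile cilia, 4 of 6 tested markers were above 0 in amygdala and none passed, and the sum over 8 was 714 to 786 in stress arrays and 692 to 732 in handled arrays. Foxj1, the transcription factor of motile cilia, averaged 38.0 in stress amygdala and 67.2 in handled amygdala. In hippocampus the choroid plexus sum was 4300 to 4394 in stress arrays, against 1818 to 2000 in handled arrays, with Ttr and Sostdc1 passing, and the oligodendrocyte sum was 17618 to 20053 in stress arrays, against 20684 to 23284 in handled arrays. All 6 tested ependymal markers had a change below 0 there. The CA1 pyramidal marker Wfs1 averaged 111 ± 9.82 in stress hippocampus and 192 ± 7.25 in handled hippocampus (SD, n = 3 each). Handled amygdala and handled cortex had more of it, at 321 and 285, so it did not mark the hippocampus in these arrays. Wfs1 was the only 1 of 5 tested hippocampal markers to pass in the hippocampus stress comparison, with 3 below 0 and 2 above. The sum over 7 hippocampal markers did not fall, at 2880 to 3373 in stress arrays against 2937 to 3003 in handled arrays. The part of these shifts in the change of Gpr161 was not tested. In cortex, 8 of 8 tested markers of meningeal fibroblasts had a change below 0 and 6 passed, and the sum over 9 was 696 to 741 in stress arrays, against 1754 to 1807 in handled arrays. In the average of the regions 6 of the 8 also passed as lower, and the part of this shift in the averaged changes of Bbs5 and Gpr161 was not tested. Those sums were 463 to 535 in handled amygdala and 635 to 663 in handled hippocampus, so the comparisons of handled regions with cortex carried the same difference in markers. For handled amygdala minus hippocampus 28.4% of all probe sets passed. There 8 of 8 tested oligodendrocyte markers passed as lower and 7 of 8 microglial markers as higher. Of 16 tested motile axoneme genes 10 passed as higher there and none as lower. In amygdala minus cortex, where 14.7% of all passed, 8 of these 16 and 5 of 6 ependymal markers passed as higher. The part of these differences in the regional calls was not tested. In such bulk tissue, fewer cells of a type and less RNA per cell cannot be told apart.

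The other genes did not pass. In amygdala the extremes of the 63 were the genes that passed, at -0.66 (Ahi1) and 0.85 (Gas8). In hippocampus the lowest was Gpr161, which passed, at -0.83. The highest there, which did not pass, was 0.60, and the extremes in cortex were -0.40 and 0.44. The median change of the 63 was 0.04 in amygdala, 0.04 in hippocampus and 0.06 in cortex, beside 0.01, 0.00 and 0.00 over all tested probe sets, and 40, 36 and 45 of the 63 were above 0, against 52.2%, 50.8% and 50.2% of all. The stress arrays lay wholly above the handled ones for 8 of the 63 in amygdala, 4 in hippocampus and 7 in cortex, against 8.13%, 7.12% and 12.1% of all probe sets. They lay wholly below for 4, 2 and 5, against 8.46%, 7.06% and 11.2% of all. The change had the same sign in all 3 regions for 20 genes above 0, or 31.7% of the 63 against 18.5% of all probe sets, and for 3 genes below 0, or 4.76% against 16.9%. Those 3, named after their values were seen, were Gpr161 and the IFT genes Ift22 and Ift70b. The amygdala change of Gpr161 was only -0.004, and its second probe set was above 0 in cortex (0.08). None of the 63 was wholly above or wholly below in every region, as were 0.354% and 0.741% of all probe sets.

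**Figure D3:**
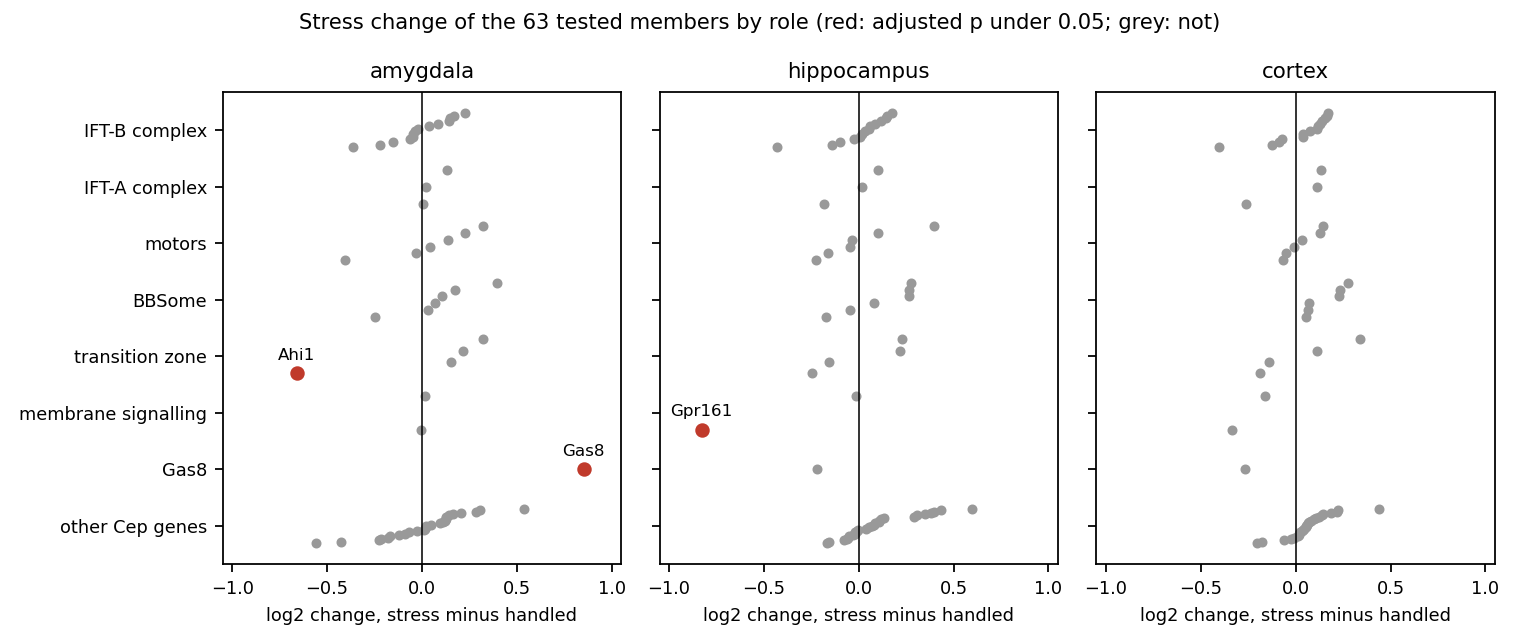
Log2 change (stress minus handled) of each of the 63 tested genes in the 3 regions, grouped by role; red points passed and grey points did not. Ahi1 (low) and Gas8 (high) are red in amygdala and Gpr161 (low) in hippocampus, no point is red in cortex, and the grey points scatter on both sides of 0.

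Among the train proteins, 14 genes of the IFT-B complex, which moves outward along the cilium, and 3 of the IFT-A complex, which serves the return, were tested, and none passed with limma, while 1 of them in amygdala and none in hippocampus or cortex had an unadjusted p under 0.05, against 13.7%, 10.9% and 10.2% of all probe sets. Ift22, a small GTPase-like subunit, had the lowest average of them at -0.40 ± 0.12 (adjusted p = 0.0672, limma). It had 39.2, 39.1 and 54.1 in stress amygdala, against 58.8, 47.0 and 80.1 in handled amygdala. In hippocampus it had 42.2, 48.5 and 33.0 in stress arrays, against 66.0, 74.0 and 45.0 in handled arrays. In cortex it had 44.7, 24.5 and 56.2 in stress arrays, against 60.1, 61.7 and 53.3 in handled arrays. Each region's groups overlapped. Ift88, whose loss removes cilia in mice, had changes of 0.09 ± 0.11, -0.10 ± 0.11 and -0.09 ± 0.11 in amygdala, hippocampus and cortex.

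None of the 6 motor genes passed with limma, and 2 in amygdala, 1 in hippocampus and 0 in cortex had an unadjusted p under 0.05, against the same 13.7%, 10.9% and 10.2% of all probe sets. Kif3a and Kif3b encode the motor subunits of the kinesin that draws trains outward. The brighter Kif3a probe set had 167, 183 and 187 in stress amygdala, against 242, 203 and 289.6 in handled amygdala. The groups were apart, and the change of -0.41 ± 0.11 missed the threshold (adjusted p = 0.0600, limma). The second Kif3a probe set had 180.0, 162 and 169 in stress amygdala, against 118, 139 and 217 in handled amygdala, which overlapped, with a change of 0.14 ± 0.16. The brighter Kif3b probe set had 397, 343 and 330.0 in stress amygdala, against 355, 354 and 328 in handled amygdala, and its changes were 0.04, -0.04 and -0.07, each ± 0.08, in the 3 regions. The 95% interval of that amygdala change, in the brighter Kif3b probe set, ran from -0.12 to 0.20. The second Kif3b probe set was dim, with a mean intensity of 43.8. It changed by -0.56, 0.44 and 0.33 in amygdala, hippocampus and cortex, the opposite sign in each region, and did not pass. The heavy chain Dync2h1 of the dynein that returns trains changed by 0.23 ± 0.11 in amygdala (adjusted p = 0.349, limma).

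Of the 6 tested BBSome genes, 5 were above 0 in amygdala, 4 in hippocampus and 6 in cortex, against 52.2%, 50.8% and 50.2% of all probe sets. Their medians were 0.09, 0.17 and 0.15. With limma, 1 in amygdala, 0 in hippocampus and 0 in cortex had an unadjusted p under 0.05. A second Bbs4 probe set changed by -0.51, 0.51 and 0.08 in the 3 regions, and a second Bbs7 set by 0.55, 0.52 and 0.33. Only Bbs5 passed, in the average. Bbs1, the subunit most often mutated in Bardet-Biedl syndrome, ran the other way in amygdala (-0.25 ± 0.17) and did not pass. Of the other transition zone genes, Cep290, a large protein that links membrane and microtubules, had an average change of 0.29 ± 0.10 (adjusted p = 0.0798, limma), with 88.2, 68.0 and 67.6 in stress amygdala, against 46.1, 64.7 and 59.1 in handled amygdala. Those groups were apart by a small gap. Tctn1 and Tctn3 did not pass in any region.

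Adcy3, the adenylyl cyclase by which neuronal cilia are commonly recognised, had 208, 218 and 206 in stress amygdala, against 229, 195 and 202 in handled amygdala. In hippocampus it had 302, 292 and 285 in stress arrays, against 306, 279 and 306 in handled arrays. The groups overlapped in both, with 95% intervals of the change from -0.15 to 0.18 and from -0.18 to 0.15. In cortex it had 227, 224 and 226 in stress arrays, against 247, 258 and 258 in handled arrays. The cortex groups were apart, and the change of -0.16 ± 0.08 did not pass (adjusted p = 0.496, limma).

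Of the 27 other Cep genes tested, which build centrioles and the material around them, 17 were above 0 in amygdala, 16 in hippocampus and 22 in cortex. Over all probe sets 52.2%, 50.8% and 50.2% were above 0. None of the 27 passed with limma, and 3, 2 and 3 had an unadjusted p under 0.05 in these regions, against 13.7%, 10.9% and 10.2% of all. Those nearest to passing in amygdala differed in sign. Cep68, of the linker between centrioles, had 97.5, 68.6 and 63.6 in stress amygdala, against 120.1, 106 and 131 in handled amygdala, without overlap (-0.56 ± 0.17, adjusted p = 0.103, limma). Cep295, needed for centrioles to mature, changed by 0.54 ± 0.20 in amygdala (adjusted p = 0.211, limma), whereas its 2 further probe sets changed by -0.64 and -0.26. These genes are named as examples chosen after their values were seen.

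Between handled regions more of the genes differed, led by Gpr161, Ahi1 and Cep41. In amygdala minus cortex 3 of the 63 passed, against 14.7% of all, in hippocampus minus cortex 6, against 25.9%, and in amygdala minus hippocampus 16, against 28.4%. The 3 comparisons share the handled arrays with each other and with the stress comparisons. The 3′ minus 5′ difference of the controls (log2) also differed by region. At beta-actin it was 1.99 to 2.15 in handled amygdala, against 1.35 to 1.80 in hippocampus and 1.63 to 1.73 in cortex. At GAPDH it was 0.41 to 0.50, against 0.18 to 0.38 and 0.26 to 0.33. Hexokinase ran the other way, at 0.83 to 0.99 against 1.03 to 1.26 and 1.10 to 1.31. Their part in the regional calls was not tested.

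The membrane proteins were highest in hippocampus. Gpr161 in its brighter probe set had 347, 326 and 311 in handled hippocampus, against 174, 109 and 109 in handled amygdala and 112, 134 and 111 in handled cortex. In this set amygdala and cortex overlapped and hippocampus lay above both. The change was 1.35 ± 0.16 for hippocampus minus cortex (adjusted p = 4.16e-07, limma) and -1.26 ± 0.16 for amygdala minus hippocampus (adjusted p = 1.32e-06). The second set gave 1.11 ± 0.13 and -0.66 ± 0.13 for the same comparisons, both of which passed. In that set amygdala, at 77.0, 87.5 and 84.8, also lay above cortex, at 57.6, 62.9 and 49.9, and the difference of 0.45 ± 0.13 passed (adjusted p = 0.0199, limma). The handled hippocampus arrays also enter the stress comparison given above, and the stress hippocampus arrays of the brighter set, at 149, 239.8 and 156, overlapped those of handled amygdala. Adcy3 had 229, 195 and 202 in handled amygdala, against 306, 279 and 306 in handled hippocampus and 247, 258 and 258 in handled cortex. Its 3 regions did not overlap. Amygdala was the lowest, with -0.48 ± 0.08 for amygdala minus hippocampus (adjusted p = 6.64e-05, limma) and -0.27 ± 0.08 for amygdala minus cortex (adjusted p = 0.0238).

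Ahi1 had the opposite order, with its highest values in amygdala. Its brighter probe set gave 0.83 ± 0.17 for amygdala minus cortex (adjusted p = 0.00179, limma) and 1.24 ± 0.17 for amygdala minus hippocampus (adjusted p = 6.72e-06), from the handled values above. The second set gave 1.26 ± 0.12 and 1.55 ± 0.12, and both passed. The stress amygdala arrays of the second set, at 169.8, 142 and 152, overlapped those of handled cortex, at 165, 135 and 137. Handled cortex and handled hippocampus did not overlap in either Ahi1 set, and the difference did not pass.

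Cep41, a Joubert syndrome protein needed for the glutamylation of ciliary tubulin, had 461, 385 and 447 in handled amygdala, against 106, 184 and 149.9 in handled hippocampus and 266, 297 and 384 in handled cortex. Hippocampus was lowest, with -1.04 ± 0.18 for hippocampus minus cortex (adjusted p = 1.16e-04, limma) and 1.48 ± 0.18 for amygdala minus hippocampus (adjusted p = 1.12e-06). A second Cep41 probe set passed in both with the same signs (-0.66 ± 0.13 and 0.67 ± 0.13), and its remaining probe set had the same signs without passing. Amygdala and cortex were barely apart and their difference did not pass. Dync2i1, an intermediate chain of the ciliary dynein, had 107, 118 and 105 in handled amygdala, against 63.1, 89.3 and 75.0 in handled hippocampus and 52.7, 70.1 and 80.5 in handled cortex. Amygdala lay above both, by 0.60 ± 0.17 over cortex (adjusted p = 0.0186, limma) and by 0.46 ± 0.17 over hippocampus (adjusted p = 0.0457), and the second of these was lost in 15 of 27 alternatives.

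Other train proteins differed in small steps. Ift122, of the IFT-A complex, had 183, 198 and 217 in handled amygdala, against 142, 134 and 124 in handled hippocampus and 189, 167 and 158 in handled cortex. Hippocampus was lowest, with -0.33 ± 0.12 for hippocampus minus cortex (adjusted p = 0.0380, limma) and 0.53 ± 0.12 for amygdala minus hippocampus (adjusted p = 0.00109). Ift57, of the IFT-B complex, had 174, 203 and 178 in handled hippocampus, against 252, 237 and 278 in handled cortex, which did not overlap (-0.44 ± 0.10, adjusted p = 0.00176, limma). In amygdala minus hippocampus, Ift27, a small GTPase that works with the BBSome, gave -0.52 ± 0.16 and Ift70b, another subunit of IFT-B, gave -0.49 ± 0.16, both passing with lower values in amygdala. Bbs5 gave -0.41 ± 0.14 for hippocampus minus cortex (adjusted p = 0.0302, limma) although its arrays overlapped, and Bbs1 was higher in amygdala than in hippocampus by 0.57 ± 0.17 (adjusted p = 0.0124).

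Cep170b, a paralogue of the microtubule-binding Cep170, had 1127, 1062 and 986 in handled hippocampus, against 1272, 1258 and 1278 in handled cortex, a difference of -0.26 ± 0.08 without overlap (adjusted p = 0.0120, limma). Cep120, needed for centriole growth, had 274, 265 and 244 in handled amygdala, against 325, 329.8 and 344 in handled hippocampus, also without overlap (-0.34 ± 0.09, adjusted p = 0.00589, limma). Cep135, of the centriole cartwheel, and Cep43, which helps start the cilium, were higher in amygdala than in hippocampus by 0.66 ± 0.22 and 0.55 ± 0.18. Cep135 was dim, with 34.2, 42.9 and 56.4 in handled amygdala, against 11.3, 27.7 and 29.3 in handled hippocampus. The other 4 genes that passed for amygdala minus hippocampus, named although smaller, were Cep70, Cep170b, Kif3b and Cep19, with differences of 0.45, 0.28, -0.26 and -0.22.

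Several of these regional calls were lost when a single handled array was left out. The call for Adcy3 in amygdala minus cortex was lost without amygdala replicate 2 or 3 or cortex replicate 2 or 3 (adjusted p up to 0.110). That of the second Gpr161 set for the same regions was lost without amygdala replicate 2 or 3 or cortex replicate 3 (up to 0.0994), and that of Dync2i1 without amygdala replicate 2 or cortex replicate 1 (up to 0.119). In hippocampus minus cortex, Bbs5 lost its call without hippocampus replicate 1 or 3, without any of the cortex arrays and with only the arrays compared (up to 0.153). Ift122 lost it without hippocampus replicate 2 or 3 or cortex replicate 1 or 2, with no filter and with quantile normalization (up to 0.167), and Cep170b without hippocampus replicate 3 (0.0717). In amygdala minus hippocampus, Cep135 lost its call without amygdala replicate 2 or 3 or hippocampus replicate 1, with no filter and with only the arrays compared (up to 0.173), and Ift70b without amygdala replicate 1 or hippocampus replicate 3 and with only the arrays compared (up to 0.162). Ift27, without amygdala replicate 2 or hippocampus replicate 1, lost it as well (up to 0.129), as did Cep43 without amygdala replicate 1 or hippocampus replicate 1 or 2 (up to 0.0942). The same held for Bbs1 without amygdala replicate 1 or hippocampus replicate 2 (up to 0.0864), Kif3b without amygdala replicate 3 or hippocampus replicate 1 (up to 0.0686), Cep19 without amygdala replicate 1 or hippocampus replicate 3 (up to 0.0943) and Cep70 without hippocampus replicate 1 (0.0900). The regional calls of Ahi1, Cep41, Ift57 and Cep120, those of Gpr161 that set hippocampus against another region, and those of Ift122, Adcy3 and Cep170b in amygdala minus hippocampus were kept in every alternative run.

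**Figure D4:**
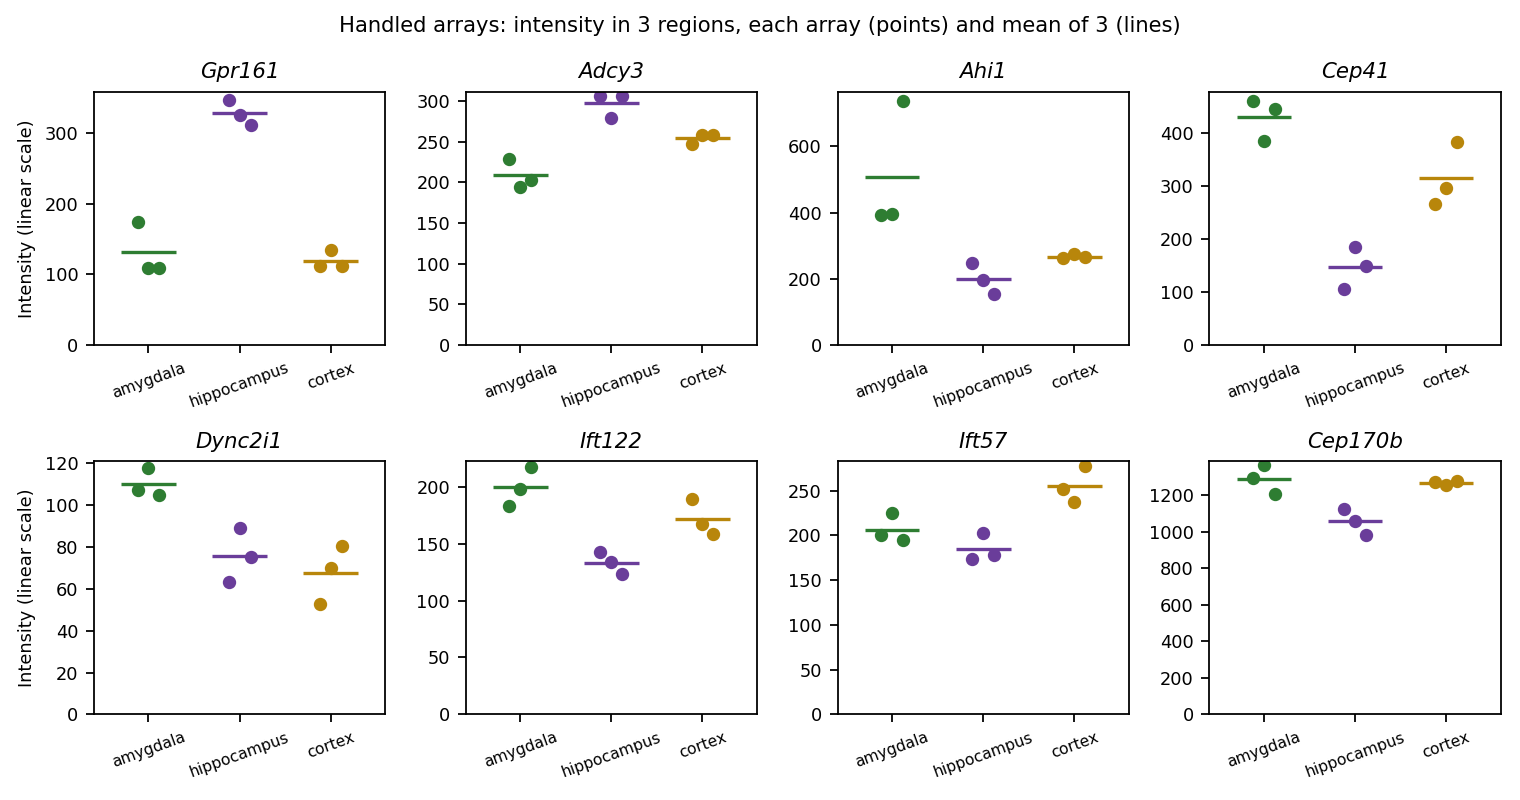
Intensity (linear scale) on each handled array in amygdala, hippocampus and cortex for 8 genes that passed between regions; lines are means of 3 arrays. Gpr161 and Adcy3 are highest in hippocampus, Ahi1 is highest in amygdala, and Cep41 is lowest in hippocampus.

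Of the 63 genes, 16 had further probe sets that passed the filter, giving 19 pairs. Across the 18 arrays the r within a pair ran from -0.36 to 0.85 with a median of 0.25, a description over arrays that share regions and treatment, and 4 pairs were above 0.5 (Ahi1, Gpr161, Cep41 and Bbs7). The sign of the stress change was the same in both probe sets for 10 of the 19 pairs in amygdala, 10 in hippocampus and 13 in cortex. Apart from Ahi1 in amygdala and Gpr161 in hippocampus and in the average of the regions, no gene passed under stress in its brighter and in another probe set.

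**Figure D5:**
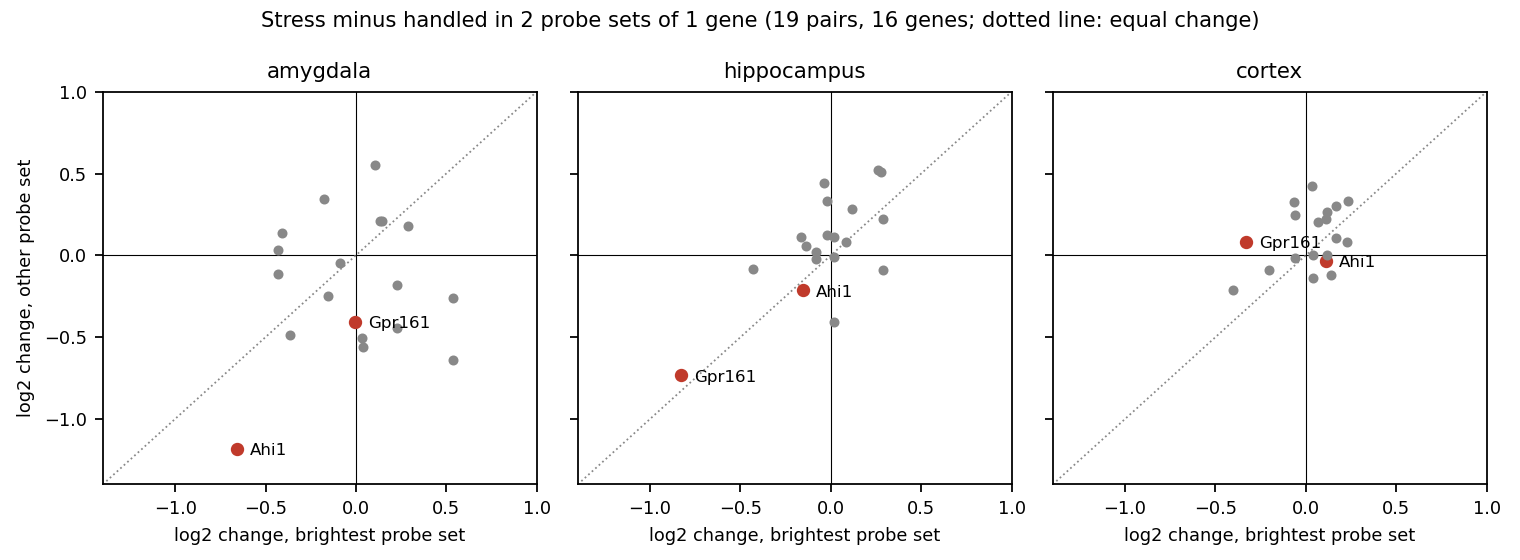
Log2 change (stress minus handled) of the brightest probe set of a gene on the x axis and of another probe set of the same gene on the y axis, 19 pairs of 16 genes in 3 regions; the dotted line marks equal change. Ahi1 in amygdala and Gpr161 in hippocampus are low on both axes, and the grey points scatter around 0.

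When region means were removed, the genes whose profile over the 18 arrays was most like that of Ahi1 were Kif3a (r = 0.84), Ift22 (0.47), Cep68 (0.43), Cep170 (0.42) and Cep15 (0.40). Handled amygdala replicate 3 held the highest value of both Ahi1 and Kif3a. For Gpr161 they were Ift22 (0.54), Cep170b (0.44), Adcy3 (0.44), Ift88 (0.37) and Ift43 (0.36). These values describe arrays that share a treatment.

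The wider pathway was counted in lists of genes that the chosen symbols do not cover. None of 23 further genes of the transition zone and basal body, 28 of ciliary trafficking, 15 ciliary receptors and cyclic AMP genes, 4 of Hedgehog signalling, 31 of the centrosome and 16 of the motile axoneme passed in any region with limma, and over these 117 genes 14 had an unadjusted p under 0.05 in amygdala, 14 in hippocampus and 9 in cortex, against 13.7%, 10.9% and 10.2% of all probe sets. In the average of the regions 3 of the 117 rose and 3 fell, a share near the 4.66% of all probe sets that passed, so the 6 are named to complete the count. Cc2d2a, a transition zone gene of Joubert syndrome (0.26 ± 0.07), Rab10, a GTPase of vesicle transport (0.18 ± 0.04), and Spa17 of the motile axoneme list (0.38 ± 0.10) rose, and Nek1, a kinase of the basal body (-0.35 ± 0.09), Dctn1, the large dynactin subunit (-0.14 ± 0.03), and Dnal1, an axonemal dynein light chain (-0.24 ± 0.04), fell. Hedgehog signalling, which Gpr161 holds back, was measured poorly, since only 4 of its 15 genes on the array passed the filter.

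Of the 5 tested RFX factors, which bind the X-box, 1 passed in amygdala, where 1.94% of all probe sets passed as lower. That factor, Rfx7, fell. It averaged 427 ± 49.0 in stress amygdala and 559 ± 64.1 in handled amygdala (SD, n = 3 each), a change of -0.38 ± 0.09 (adjusted p = 0.0333, limma). Rfx4 rose in the average of the regions by 0.30 ± 0.07 (adjusted p = 0.0205, limma), where 4.66% of all probe sets passed in either direction. Counts of 1 among 5 genes say little of the factors as a group. No alternatives are given for these calls.

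Promoter windows of 300 bases from RefSeq (GRCr8) matched 60 of the 68 genes, and Ift80, Dync2h1, Cep41, Ift25, Cep135, Adcy3, Ift74 and Ift57 are named only. The X-box was searched as GTTNCC followed after 3 bases by GNAAC, and its core site as GTTGCC, on both strands, and a core site can lie within an X-box. The core site was in 19 of the 60 windows, or 31.7%, against 12.2% of 33469 windows of all genes and 12.4% of 21851 windows of coding genes. These promoters held 59.2% G and C, against 54.9% for coding genes. The full letters were in 1 of the 60 (1.67%), that of Ahi1 printed above, against 0.753% of all windows and 0.677% of coding ones. Of the 4 genes that passed under stress, Ahi1 held the X-box, Gas8 and Bbs5 held core sites and Gpr161 held neither, so the genes that moved shared no one of these motifs. A match of letters is a description, and no binding was measured.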

How the data were processed

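Total RNA of 18 rat brain samples, 3 in each of 6 groups, was measured on 1 array each. Each deposited value is the linear intensity of a probe set on an array, and the sources used here do not name the software behind it. The values show that the authors brought every array to a trimmed mean (2% off each tail) of 150.0, which hides a change common to most bright transcripts. Array medians were 49.1 to 56.4. No 2 arrays held the same values.

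Of 31099 probe sets, 20832 had 1 symbol in the platform annotation, 436 several and 9831 none, and 57 controls were left out. Values were taken as log2(intensity + 16), probe sets with a mean below the 40th percentile were dropped, and limma 3.58.1 in R 4.3.3 was fitted to 6 group means over the 18 arrays (lmFit, eBayes with a variance trend, 12 residual and 10.2 prior degrees of freedom). The 10 contrasts were adjusted each over 18625 probe sets at 0.05. The fit was tested on simulated data.

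Members and gene lists were chosen with earlier results of these data known. Genes were named where they passed a stress contrast or were named singly in the choice of genes. Up to 5 per direction with the largest difference between handled regions were named too. Other genes, among them Cep290, Dync2h1 and Ift88, were also named with values. Only some of these others are marked as chosen after their values were seen. The main fit did not pair arrays by replicate number, and the labels do not say whether these numbers pair them. Alternatives were the filter, offset, scaling, variance trend, replicate block, each array left out, only the arrays compared and every probe set counted. Scan dates were not used here.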

Additional observations from a re-analysis of the deposited data

Results flagged for a closer look

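The stress effect on the second Ahi1 probe set differed between regions when the difference itself was tested with limma. Amygdala minus cortex was -1.15 ± 0.17 on the log2 scale (adjusted p = 0.00233), and it passed in all 27 alternatives, at -1.24 to -0.97. Amygdala minus hippocampus was -0.97 ± 0.17 (adjusted p = 0.0280). It passed in 18 of 27 alternatives and missed the threshold in 9, at -1.06 to -0.84 with adjusted p-values up to 0.129. Its 3 stress amygdala arrays lay below the 3 handled amygdala arrays, while stress and handled arrays overlapped in hippocampus and cortex. The brighter probe set gave the same sign in both differences and passed in neither.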

How the results depend on the processing

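No count or named change reversed under any alternative. In amygdala, where 2 of the genes passed, the count was 1 with no filter, with the filter at the 60th percentile, with an offset of 1, without the variance trend and with the replicate block, 0 with only the amygdala arrays fitted, 3 with median centring, and 0 to 3 when single arrays were left out. In hippocampus, where 1 passed, it was 0 without the variance trend, 2 when every probe set was counted, and 0 to 1 when arrays were left out. The averaged count of 2 was 4 with every probe set and 1 to 3 with arrays left out. The differences between regional effects, with 0 each, gave 1 each for amygdala minus hippocampus and amygdala minus cortex with every probe set (the second Ahi1 set), and 0 to 1 for amygdala minus hippocampus with arrays left out. Between handled regions, amygdala minus cortex gave 5 with only those arrays, 6 with every probe set and 2 to 5 with arrays left out, against 3. Hippocampus minus cortex gave 9 with every probe set and otherwise 5 to 8, against 6. Amygdala minus hippocampus gave 22 with every probe set and otherwise 11 to 18, against 16. In cortex the count stayed at 0 in the alternatives run. With group means removed, arrays of the same number in 2 groups had correlations of -0.03 to 0.03, and other pairs -0.04 to 0.05. For handled hippocampus and cortex the same-number values (0.010 to 0.030) lay above the others (-0.017 to 0.005). Stress regions were not set against each other, so these values do not settle whether arrays of the same number share an animal. With the replicate block Ahi1 in its brighter set lost its amygdala call (adjusted p = 0.0555, limma). The cause of these shifts in counts and calls was not tested, apart from the filter at the 60th percentile, which removes Gas8. Gas8 and Cep135 lie near the filter, so their signal over background is small.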
